A study of Mus musculus with 30 samples.

Results

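Rnf135 and Gm4952 were the 2 genes, of 22180 measured by a probe set with a single gene symbol, whose liver transcript level was both higher in obese and lower in formerly obese mice than in lean mice by the study's criteria for P value, fold change and signal. They were chosen by these measured liver signals, in the comparisons of obese and of formerly obese with lean mice. Each was read by 1 probe set of a microarray with 41345 probe sets. The microarrays measured RNA of whole liver from 30 male C57BL6/J wild-type mice, all 35 weeks old, with 6 mice in each of 5 diet groups. Formerly obese-HFD mice were fed a high-fat diet (HFD, 58% kcal from fat) for 20 weeks, a control diet (10.5% kcal from fat) for 7 weeks and then HFD again for 48 h. Formerly obese mice had the same 20 weeks of HFD and 7 weeks of control diet without the HFD refeeding, and obese mice were kept on HFD for 27 weeks. Lean-HFD mice had 27 weeks of control diet followed by HFD for 48 h, and lean mice had 27 weeks of control diet only. The groups therefore differ in diet history as a whole, with body weight, food intake and time since the diet switch tied to it.

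Rnf135, also called Riplet, encodes a RING-type ubiquitin ligase that ubiquitinates RIG-I (Ddx58), the cytosolic sensor of viral RNA, which then signals through the mitochondrial adaptor Mavs to induce type I interferons. Gm4952 encodes a predicted glycine N-acyltransferase-like protein and lies next to Glyat, the gene of the mitochondrial enzyme that joins glycine to benzoyl-CoA and other medium-chain acyl-CoAs. Medium-chain acyl-CoA ligases of the Acsm family make the acyl-CoA for this reaction in liver and kidney, and the glycine comes from serine, threonine, choline and glyoxylate.

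The mouse RefSeq annotation (GRCm38.p6) places Rnf135 on the plus strand of chromosome 11, at chr11:80183869-80199755, and Gm4952 on the plus strand of chromosome 19, at chr19:12599984-12627616. The build behind the array annotation was not given in the sources used here, so both positions are those of RefSeq. The 250 bases before each start are shown so that the promoters can be compared letter by letter. The choice required a shared pattern of levels, and whether the genes share regulation was not tested. They are written 5′ to 3′, and capitals mark the matches to the GC box GGGCGG.
Rnf135, chr11:80183619-80183868: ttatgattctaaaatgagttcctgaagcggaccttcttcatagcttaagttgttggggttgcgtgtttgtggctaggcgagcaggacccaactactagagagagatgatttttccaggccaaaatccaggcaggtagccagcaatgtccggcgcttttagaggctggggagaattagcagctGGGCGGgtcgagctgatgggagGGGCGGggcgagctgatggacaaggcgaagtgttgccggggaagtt
Gm4952, chr19:12599734-12599983: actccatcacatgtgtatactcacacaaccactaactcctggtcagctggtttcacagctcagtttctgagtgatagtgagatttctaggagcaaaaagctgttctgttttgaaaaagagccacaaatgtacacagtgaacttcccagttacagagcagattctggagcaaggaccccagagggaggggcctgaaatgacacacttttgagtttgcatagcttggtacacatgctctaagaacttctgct
The Rnf135 promoter had a GC content of 53.6% with 11 CpG dinucleotides, and the Gm4952 promoter had a GC content of 44.8% with 0 CpG. RefSeq lists another start of Gm4952 32 bases further on, whose own 250 bases had a GC content of 45.6% with 0 CpG and 0 matches to the motifs searched here. The GC box was found 2 times before Rnf135 and 0 times before Gm4952, and 32.7% of 27025 promoters of this length, 1 per gene, held it on either strand. Neither window held the TATA box TATAAA (12.9% of promoters), the CCAAT box CCAAT (34.2%), the nuclear receptor half-site AGGTCA (14.0%) or the DR1 element, in which this half-site is repeated after 1 base (0.0407%). The core of the interferon-stimulated response element, in which GAAA is repeated after 2 bases (3.06%), the E-box CACGTG (5.93%), the cAMP response element TGACGTCA (1.56%) and the NF-kappa-B motif, GGGA and TTTCC with 1 base between them (0.359%), were likewise not among the letters of either window. All motifs were searched on both strands.

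The deposited values were log2 signals between 1.24 and 13.7, with array medians of 3.29 to 3.38, which is 9.80 to 10.4 on the linear scale. Pairs of arrays correlated at r = 0.962 to 0.983 over all probe sets. The tissue label was checked with lists of marker genes. The summed linear signal of the 6 measured hepatocyte markers lay between 23184 and 26976 in all livers, and the sums of 4 pancreatic acinar markers and 3 adipocyte markers stayed at 28.4 to 39.7 and at 20.3 to 32.3. The summed signal of 11 Kupffer cell and macrophage markers ranged from 911 to 1382 in formerly obese-HFD, 873 to 1690 in formerly obese, 698 to 1217 in obese, 477 to 944 in lean-HFD and 677 to 1052 in lean livers. In RNA of whole liver, fewer cells of a type and less RNA per cell cannot be told apart.

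Rnf135 was highest in obese and lowest in formerly obese livers. Its linear signal (lowest, median, highest mouse) was 18.1, 25.1 and 27.2 in formerly obese-HFD livers, 15.9, 20.1 and 22.7 in formerly obese livers, 28.9, 30.3 and 34.3 in obese livers, 22.0, 25.5 and 31.0 in lean-HFD livers, and 22.6, 23.9 and 28.3 in lean livers. Every obese liver lay above every lean liver, and all formerly obese livers except the highest lay below the lowest lean liver. The group averages were 23.7 ± 3.82 in formerly obese-HFD, 19.6 ± 2.36 in formerly obese, 30.7 ± 1.88 in obese, 26.3 ± 3.44 in lean-HFD and 24.8 ± 2.46 in lean livers (SD, n = 6 each). The coefficient of variation within a group was smallest in obese livers, at 6.11%, and largest in formerly obese-HFD livers, at 16.1%.

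Gm4952 had the same order of groups, with wider steps. For formerly obese, lean and obese livers this order was required by the choice. Its linear signal (lowest, median, highest mouse) was 232, 268 and 370 in formerly obese-HFD livers, 176, 224 and 280 in formerly obese livers, 361, 543 and 684 in obese livers, 177, 456 and 664 in lean-HFD livers, and 294, 318 and 354 in lean livers. All obese livers lay above all lean livers and all formerly obese livers below them. The lean-HFD group was split, with 5 livers at 431 to 664, above every lean liver, and replicate 3 at 177, below every lean liver. The averages were 279 ± 49.6 in formerly obese-HFD, 224 ± 44.5 in formerly obese, 528 ± 108 in obese, 442 ± 155 in lean-HFD and 321 ± 24.2 in lean livers (SD, n = 6 each). The coefficient of variation was 35.1% in lean-HFD livers, against 7.54% in lean livers.

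**Figure D1:**
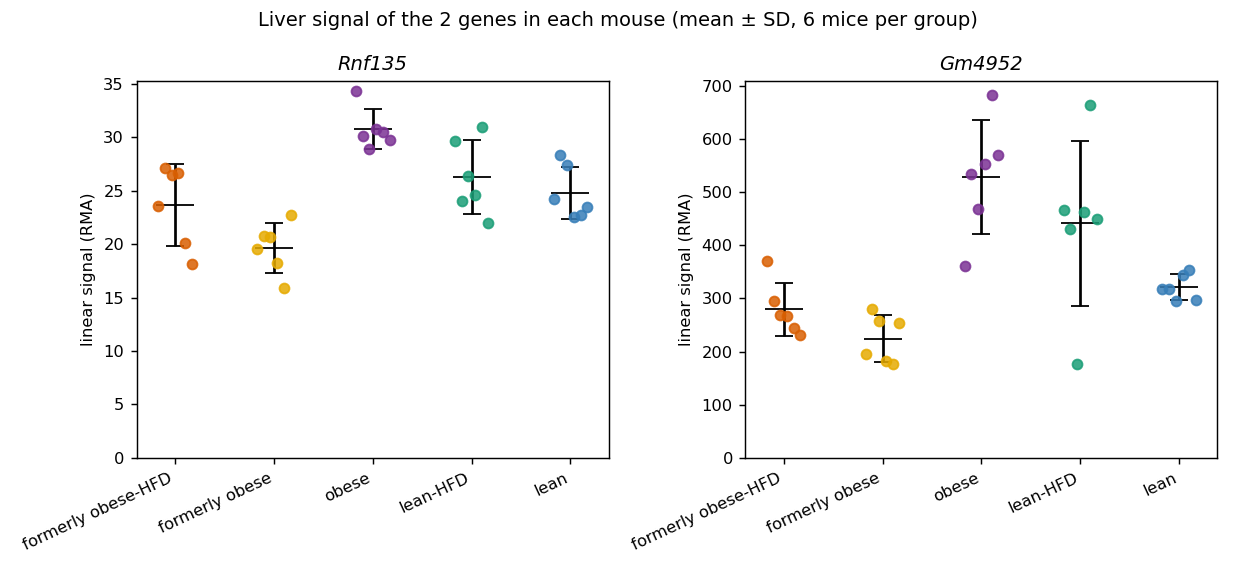
Linear microarray signal (y axis, RMA) of Rnf135 (left) and Gm4952 (right) in each of 30 mouse livers by diet group (x axis), with the mean and SD of 6 mice in black. Obese livers are highest and formerly obese livers lowest on average for both genes, and lean-HFD replicate 3 (177) sits far below the other lean-HFD livers for Gm4952.

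For both genes the averages ran upward through formerly obese, formerly obese-HFD, lean, lean-HFD and obese livers. The choice fixed the order of formerly obese, lean and obese livers, so only the places of the refed groups were free. No step between neighbours in this order separated the groups completely. For Rnf135 the steps between neighbours were 0.26, 0.08, 0.08 and 0.23 on the log2 scale, against pooled SDs of 0.21, 0.20, 0.17 and 0.15. The steps for Gm4952 were 0.33, 0.21, 0.36 and 0.33, against pooled SDs of 0.27, 0.19, 0.46 and 0.50. The steps at either end of the Rnf135 order and the lowest 2 steps of Gm4952 thus exceeded 1 pooled SD, and the others did not.

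The comparisons of obese, formerly obese and lean livers chose these genes, so they are given without a test. Rnf135 was 0.31 higher on the log2 scale in obese than in lean livers (SE 0.0837), and Gm4952 was 0.70 higher (SE 0.131). In formerly obese livers Rnf135 was lower than in lean livers by a log2 difference of -0.34 (SE 0.0991), and Gm4952 by -0.54 (SE 0.124). Formerly obese livers had less of both genes than obese livers, with log2 differences of -0.65 (SE 0.0908) for Rnf135 and -1.23 (SE 0.161) for Gm4952, and the groups did not overlap for either gene. Among all probe sets, 1.03% passed the criteria described next as lower in formerly obese than in obese livers, and 0.389% had lower, non-overlapping values in formerly obese than in obese livers. The share with higher, non-overlapping values in obese than in lean livers was 0.348%, and the share with lower, non-overlapping values in formerly obese than in lean livers was 0.189%.

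The choice rested on 3 criteria set by the study. These were an unadjusted limma P below 0.01, a change of more than 1.2-fold between the linear averages, and a linear average over 8 in one of the groups. In all, 2.01% of probe sets passed them between obese and lean livers (1.14% as higher) and 0.905% between formerly obese and lean livers (0.351% as lower). Of the 49 probe sets that passed in both, 24 were higher in both groups, 23 were lower in both, and the 2 with opposite signs were Rnf135 and Gm4952. Both comparisons share the 6 lean livers. Nearest outside the criteria with opposite signs were Gcnt2 (-0.28 in obese and 0.24 in formerly obese against lean livers, log2) and Ces1e, a liver carboxylesterase (0.21 and -0.30). Next came Rnf145 (-0.60 and 0.36), the interleukin-22 receptor subunit Il22ra1 (-0.74 and 0.54) and Hectd2os (0.59 and -0.33).

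Markers of liver cell types also differed between these groups. Between formerly obese and lean livers, 5 of 11 Kupffer cell and macrophage markers passed the criteria as higher (C1qb, Cd68, Csf1r, Timd4 and Vsig4), where 0.554% of all probe sets did. The list median was 0.54 on the log2 scale, against -0.01 for all probe sets. Between obese and lean livers 0 of 11 passed, none with a limma P under 0.05, and the list median was 0.08. All 11 were positive between formerly obese and obese livers, with a list median of 0.32. Of these, 2 passed as higher (Marco and Timd4), where 1.15% of all probe sets did. Among 6 hepatocyte markers, 2 also passed as higher there (Cps1 and Tat), although 3 of 6 were negative (list median -0.001). Markers of monocyte-derived macrophages ran in the direction of Rnf135 and Gm4952 in the comparisons with obese livers, although 0 of 6 passed the criteria. Their median difference was 0.39 between obese and lean livers, with all 6 positive, and -0.38 between formerly obese and obese livers, with all 6 negative. In each comparison 2 of 6 had an unadjusted limma P under 0.05, where 7.79% and 8.52% of all probe sets did. Between formerly obese and lean livers the list median was 0.05, with 4 of 6 positive. Ly6c2, Itgam and Itgax averaged 6.46 to 9.54, 8.03 to 9.11 and 8.32 to 10.4 over the 5 groups. These signals are near or below the array medians of 9.80 to 10.4. Lyve1, a sinusoidal endothelial marker, passed the criteria as higher in obese than in lean livers (0.81, SE 0.246, limma adjusted P = 0.388). It also passed as lower in formerly obese than in obese livers (-0.67, SE 0.216, limma adjusted P = 0.384). Among all probe sets, 1.14% passed as higher in the first comparison and 1.03% as lower in the second. Lyve1 was 1 of 6 such markers in both, and most of the 6 ran the other way. Between obese and lean livers 4 of 6 were negative (list median -0.05), and between formerly obese and obese livers 4 of 6 were positive (0.13). The part of these cells in the levels of Rnf135 and Gm4952 was not tested.

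The 12 refed livers were not used to choose the genes, and compare mice with and without a history of obesity after the same 48 h of HFD. Gm4952 was lower in formerly obese-HFD than in lean-HFD livers by a log2 difference of -0.58 (SE 0.250, 95% interval -1.12 to -0.04), a ratio of 0.633. All 6 formerly obese-HFD livers lay below the lean-HFD average, but the groups overlapped through lean-HFD replicate 3. Among all probe sets, 0.133% had lower, non-overlapping values in formerly obese-HFD livers. The limma P was 0.0373 and 0.894 after Benjamini-Hochberg adjustment over all probe sets, and the two-sided exact permutation P was 0.0628, where 0.00216 is the smallest that 6 against 6 mice allow. Gm4952 therefore passed neither the study's criteria, which 0.469% of probe sets passed as lower in this comparison, nor a false discovery rate of 10%, which 0 probe sets passed (2264, or 5.48%, had an unadjusted limma P under 0.05).

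The Gm4952 difference depended on lean-HFD replicate 3. Without that liver, a choice made after its value was seen, the log2 difference was -0.82 (SE 0.144, 95% interval -1.14 to -0.51) and the groups did not overlap, which held for 0.244% of probe sets in the same direction. The limma P was then 9.42e-05, 0.682 after adjustment over all probe sets, and the exact permutation P was 0.00433. Gm4952 then passed the criteria, as did 0.447% of probe sets as lower. The array of this liver had an average r of 0.977 with the other arrays of its group, where the others had 0.974 to 0.978, and its Rnf135 signal of 26.4 lay inside its group.

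Rnf135 was 23.7 ± 3.82 in formerly obese-HFD and 26.3 ± 3.44 in lean-HFD livers (SD, n = 6 each), and the ranges overlapped widely. The log2 difference was -0.16 (SE 0.125, 95% interval -0.43 to 0.11), with a limma P of 0.233, 0.949 after adjustment, and a two-sided exact permutation P of 0.240. Only 3 of 6 formerly obese-HFD livers lay below the lean-HFD average, so a difference was not detectable with these mice. Of the 11 Kupffer cell and macrophage markers, 10 had a positive log2 difference in formerly obese-HFD against lean-HFD livers, 6 had an unadjusted limma P under 0.05, and 3 passed the criteria as higher (C1qa, C1qc and Cd68), where 0.445% of probe sets did. The list median was 0.41 on the log2 scale. All 6 markers of monocyte-derived macrophages had positive differences, with a median of 0.33, and 0 passed the criteria. Of the 6, 1 had an unadjusted limma P under 0.05, as did 5.48% of all probe sets. The part of these cells in the differences of Rnf135 and Gm4952 was not tested.

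HFD for 48 h was set beside each group's own unrefed mice as a description, since 1 group of each pair had been used for the choice. In mice with a history of obesity, Gm4952 was 0.33 higher in formerly obese-HFD than in formerly obese livers (log2, SE 0.146, 95% interval 0.01 to 0.64), with all 6 refed livers above the formerly obese average. Rnf135 was 0.26 higher in the same comparison (SE 0.123, interval -0.00237 to 0.53), with 5 of 6 refed livers above that average. In mice without that history, Gm4952 was 0.36 higher in lean-HFD than in lean livers (SE 0.237, interval -0.15 to 0.88), and 0.61 higher (SE 0.116) without lean-HFD replicate 3. The groups did not overlap without that liver, as for 0.312% of all probe sets with higher values. Rnf135 was 0.08 higher in lean-HFD than in lean livers (SE 0.102, interval -0.14 to 0.30). Whether the response to 48 h of HFD differs between the histories was not tested.

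**Figure D2:**
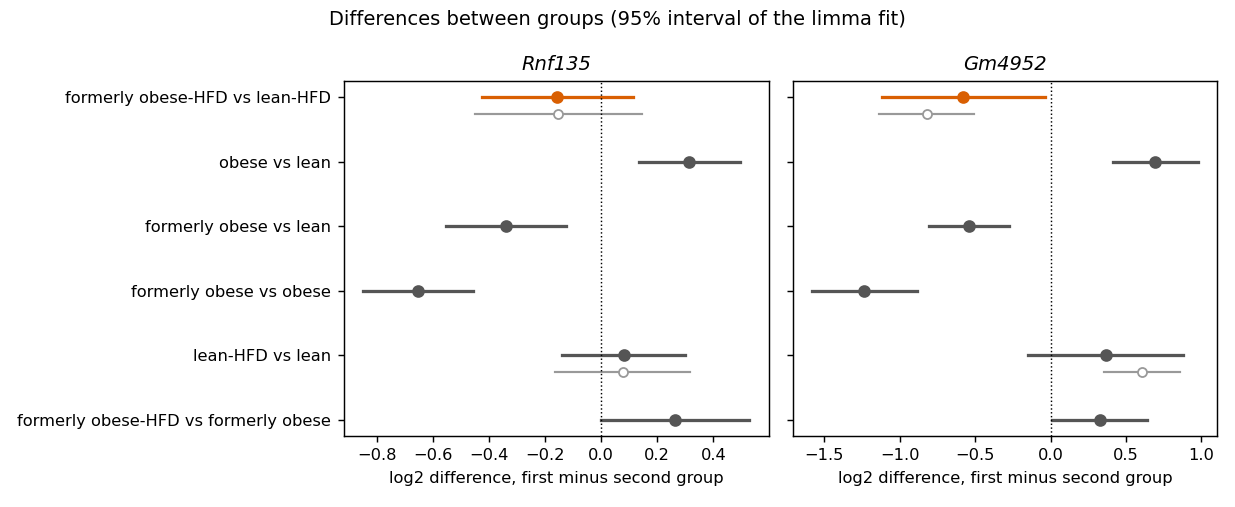
Log2 difference (x axis, first minus second named group) of Rnf135 and Gm4952 in 6 comparisons, with the 95% interval of the limma fit. Orange marks the comparison that did not choose the genes, dark grey the others, and open grey circles the values without lean-HFD replicate 3, which move Gm4952 to -0.82 in refed livers and to 0.61 in lean-HFD against lean livers.

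Across all 30 livers the 2 genes correlated at r = 0.70 (Spearman 0.73), a value that contains the group differences used for the choice. After the group averages were removed, r was 0.23. Within groups of 6 mice r was 0.49 in formerly obese-HFD, 0.83 in formerly obese, -0.62 in obese, 0.22 in lean-HFD and -0.56 in lean livers. Spearman's rho was 0.60, 0.83, -0.14, 0.60 and -0.54 in the same order of groups. The smallest two-sided exact permutation P of the 5 was that of formerly obese livers, 0.0236 for r and 0.0583 for rho, or 0.118 and 0.292 after Benjamini-Hochberg adjustment over the 5 groups. Leaving out the 2 livers farthest from the median Rnf135 signal gave an r of 0.92 in formerly obese livers, and turned the sign in formerly obese-HFD (-0.89), obese (0.23) and lean-HFD livers (-0.76), where the relation rested on those livers.

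**Figure D3:**
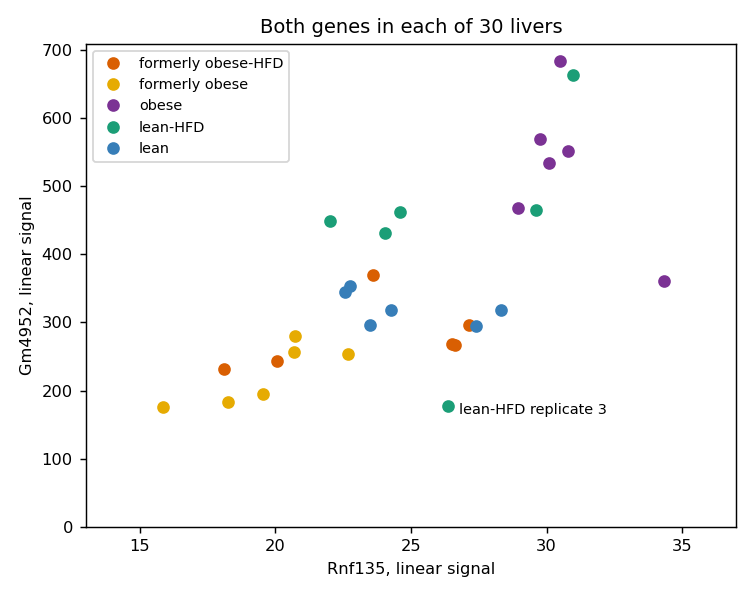
Linear signal of Rnf135 (x axis) against Gm4952 (y axis) in each of 30 livers, coloured by diet group. The groups are laid out along the diagonal (r = 0.70), whereas the deviations from the group averages follow each other less (r = 0.23).

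The genes with levels most like those of Gm4952 followed it closely from liver to liver. Over 15142 genes and 30 livers, the highest Pearson r with Gm4952 were those of Acat1 (0.87), the mitochondrial acetoacetyl-CoA thiolase of ketone body and isoleucine metabolism, Lonp2 (0.83), a peroxisomal protease, Vwa8 (0.81), a mitochondrial ATPase, Eci1 (0.80), an enoyl-CoA isomerase of mitochondrial beta-oxidation, and Etfdh (0.79), which passes electrons from acyl-CoA dehydrogenases to ubiquinone. Likeness was also high in deviations from the group averages for Acat1 (r = 0.87) and Etfdh (0.86), the 2 highest of all genes, and was 0.75 for Eci1, 0.71 for Lonp2 and 0.69 for Vwa8. Acat1 averaged 840 in formerly obese-HFD, 769 in formerly obese, 1084 in obese, 877 in lean-HFD and 836 in lean livers, a narrower spread than that of Gm4952. In lean-HFD replicate 3 all 5 genes had the lowest signal of their group, as with Acat1 at 545 against 891 to 1038 in the other lean-HFD livers. Without this liver the r over livers, which contains the group differences, was 0.86 for Acat1 and 0.77 for Etfdh. Whether the likeness in deviations from the group averages holds without this liver was not tested. The lowest r belonged to Lsr (-0.78), a hepatic lipoprotein receptor, Atg16l2 (-0.74), a homologue of the autophagy factor Atg16l1, and the ribosomal protein gene Rpl14 (-0.73).

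The genes most like Rnf135 had lower correlations. They were Adhfe1 (r = 0.74), a mitochondrial hydroxyacid-oxoacid transhydrogenase, Asic5 (0.73), an ion channel opened by bile acids, Gm4952 (0.70), Ribc1 (0.69), a protein of ciliary microtubules, and Cog4 (0.69), a subunit of the Golgi COG complex. Ribc1 kept an r of 0.69 in deviations from the group averages, where Gm4952 had 0.23. Asic5 averaged 20.3 in formerly obese-HFD, 16.6 in formerly obese, 27.9 in obese, 20.3 in lean-HFD and 20.5 in lean livers. The lowest r were those of Rpl14 (-0.68), Tbp (-0.68), the TATA-binding protein, and the RNA-binding protein gene Hnrnpdl (-0.65). All 30 livers include the groups used for the choice, so these correlations are descriptions.

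**Figure D4:**
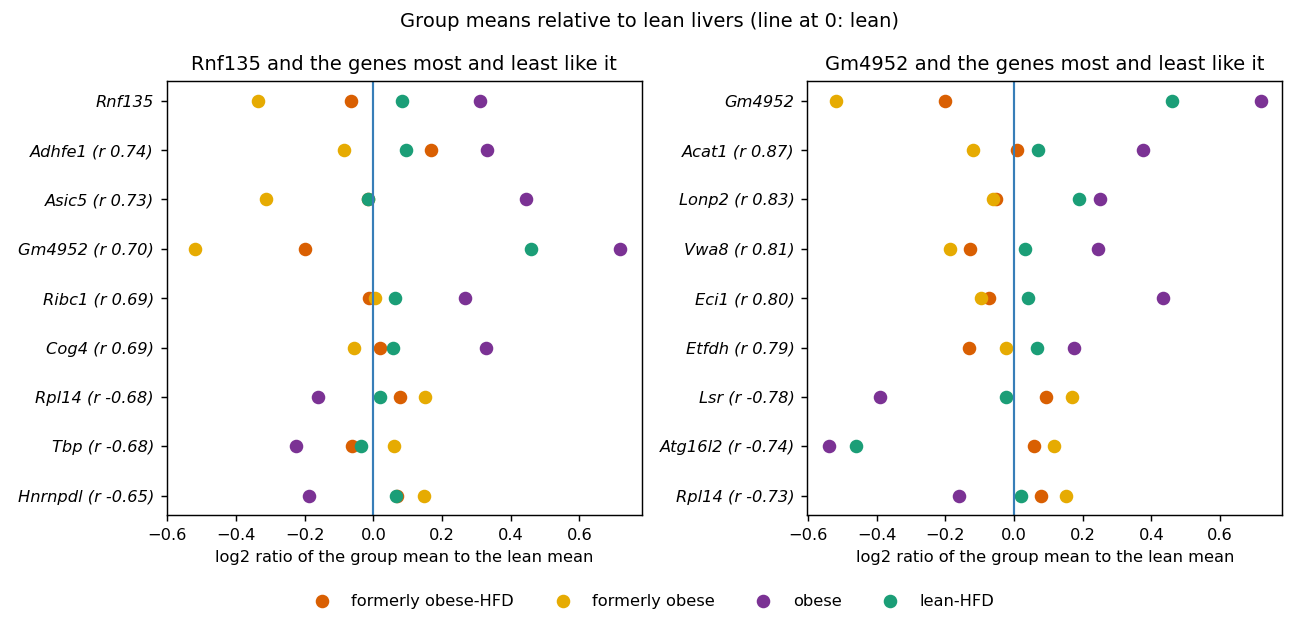
Log2 ratio of each group's average linear signal to the lean average (x axis; lean is the line at 0) for Rnf135 (left), Gm4952 (right) and the genes with the highest and lowest Pearson r to each over 30 livers. Obese averages lie on the right for Acat1 and the other genes with positive r, and on the left for those with negative r, and Gm4952 has the widest spread of the genes shown.

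The neighbours of both genes on the chromosome did not pass the criteria in any of the 6 comparisons. Before Rnf135 lie Tefm, a mitochondrial transcription elongation factor, and Adap2, and after it Rhot1, which moves mitochondria along microtubules, and Rhbdl3. Tefm averaged 37.2 in formerly obese-HFD, 30.1 in formerly obese, 43.0 in obese, 39.5 in lean-HFD and 34.0 in lean livers. Its log2 differences were 0.27 (SE 0.203) between obese and lean livers and -0.17 (SE 0.101) between formerly obese and lean livers. Between formerly obese-HFD and formerly obese livers its log2 difference was 0.31 (SE 0.102). Fam111a and the long non-coding RNA A330040F15Rik lie before Gm4952, and Glyat lies after it. Glyat averaged 221 in formerly obese-HFD, 239 in formerly obese, 256 in obese, 253 in lean-HFD and 255 in lean livers. Its log2 differences were -0.20 (SE 0.0905, limma adjusted P = 0.900) in formerly obese-HFD against lean-HFD livers, -0.00233 (SE 0.102) in obese against lean livers and -0.09 (SE 0.0876) in formerly obese against lean livers. The small nuclear RNA gene Gm24521 beyond Glyat had no single-symbol probe set here.

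In the RIG-I pathway, 1 gene passed the criteria in each of 3 comparisons and 0 in the other 3. Of 24 genes listed, 23 were measured, and between formerly obese-HFD and lean-HFD livers 0 passed, where 0.914% of all probe sets did and where none of the 23 had a limma P under 0.05. Ddx58 itself, the target of Rnf135, averaged 91.1 in formerly obese-HFD, 89.1 in formerly obese, 82.6 in obese, 97.4 in lean-HFD and 87.7 in lean livers and passed in none of the 6 comparisons. Trim25, another ubiquitin ligase reported to act on RIG-I, and Mavs also passed in none. Zc3hav1, a cofactor of RIG-I, rose by 0.30 on the log2 scale in obese against lean livers (SE 0.0849, limma adjusted P = 0.335). In that comparison 2.01% of probe sets passed. Rnf125, a ubiquitin ligase that marks RIG-I for degradation, was lower in formerly obese than in obese livers (-0.39, SE 0.113, limma adjusted P = 0.310), a comparison in which 2.17% of probe sets passed. Ifih1, the related RNA sensor MDA5, was higher in formerly obese-HFD than in formerly obese livers (0.33, SE 0.105, limma adjusted P = 0.665), where 1.18% of probe sets passed. None of these 3 calls passed a false discovery rate of 10%. List medians lay between -0.04 and 0.05 on the log2 scale in the 6 comparisons, and those of all probe sets between -0.01 and 0.01.

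Genes induced by interferon showed single calls. Of 20 listed, 17 were measured, and 0 passed between formerly obese-HFD and lean-HFD livers, between obese and lean livers or between formerly obese-HFD and formerly obese livers. In the same order of comparisons, 0.914%, 2.01% and 1.18% of all probe sets passed. Cmpk2, a mitochondrial nucleotide kinase, was higher in formerly obese than in lean livers (0.38, SE 0.124, limma adjusted P = 0.789). Bst2, which tethers virions to the cell, was higher in formerly obese than in obese livers (0.49, SE 0.156, limma adjusted P = 0.376). Of all probe sets, 0.905% passed in the comparison of Cmpk2 and 2.17% in that of Bst2. Mx2, an antiviral GTPase, was higher in lean-HFD than in lean livers (0.73, SE 0.227, limma adjusted P = 0.620), where 1.29% of probe sets passed. The list medians were all positive, from 0.02 to 0.20 on the log2 scale. None of the 17 genes had an unadjusted limma P under 0.05 in the comparisons without a call.

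Among genes of acyl-CoA amino acid N-acyltransferases, grouped by the type of reaction, Acnat2 and Acnat1 passed the criteria in 1 comparison each. Of 9 genes of amino acid N-acyltransferases listed, 8 were measured, each by its brightest probe set. Of these, 0 passed between formerly obese-HFD and lean-HFD livers, with 1 (Glyat) at an unadjusted limma P under 0.05. Of all probe sets, 0.914% passed in that comparison, 2.01% between obese and lean livers and 1.29% between lean-HFD and lean livers. List medians lay between -0.12 and 0.18 on the log2 scale in the 6 comparisons. Acnat2, an acyltransferase that conjugates fatty acids to taurine, was higher in obese than in lean livers (0.72, SE 0.210, limma adjusted P = 0.362). Its average was 38.8 in formerly obese-HFD, 50.6 in formerly obese, 67.2 in obese, 42.9 in lean-HFD and 41.5 in lean livers, so that formerly obese livers lay above the lean average. Acnat1 was higher in lean-HFD than in lean livers (0.37, SE 0.0908, limma adjusted P = 0.435), and Baat, which conjugates bile acids, passed in none of the 6 comparisons. Keg1, a glycine N-acyltransferase-like gene, had 2 probe sets that differed in size of change. In formerly obese-HFD against lean-HFD livers the brighter probe set had a log2 difference of -0.43 (SE 0.223), which did not pass the criteria, and the dimmer one of -1.77 (SE 0.395). Only the brighter one was counted. Cross-hybridisation among these genes was not tested.

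Among the listed acyl-CoA ligases and genes of glycine supply and breakdown, Acsm1, Acss3 and Dmgdh passed the criteria in 1 comparison each and Agxt in 3. Between formerly obese-HFD and lean-HFD livers, where 0.914% of probe sets passed, the calls were 0 of the 8 measured ligases and 0 of the 16 measured genes of glycine supply, none of them at an unadjusted limma P under 0.05. For the other comparisons the share of probe sets that passed was 2.01% between obese and lean, 2.17% between formerly obese and obese, 1.29% between lean-HFD and lean, and 1.18% between formerly obese-HFD and formerly obese livers. List medians ran from -0.11 to 0.10 for the ligases and from -0.13 to 0.09 for glycine supply in the 6 comparisons. Acsm1, a medium-chain acyl-CoA ligase, was higher in lean-HFD than in lean livers (0.34, SE 0.103, limma adjusted P = 0.603). Acss3, a mitochondrial propionyl-CoA ligase, was lower in formerly obese than in obese livers (-0.88, SE 0.220, limma adjusted P = 0.202). Dmgdh, which demethylates dimethylglycine on the way from choline to glycine, was higher in obese than in lean livers (0.32, SE 0.104, limma adjusted P = 0.424). Agxt, which makes glycine from glyoxylate, averaged 361 in formerly obese-HFD, 197 in formerly obese, 291 in obese, 371 in lean-HFD and 215 in lean livers. Agxt was higher in formerly obese-HFD than in formerly obese livers (0.88, SE 0.0937, limma adjusted P = 0.0141) and higher in lean-HFD than in lean livers (0.80, SE 0.138, limma adjusted P = 0.159). It was lower in formerly obese than in obese livers (-0.55, SE 0.130, limma adjusted P = 0.177).

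**Figure D5:**
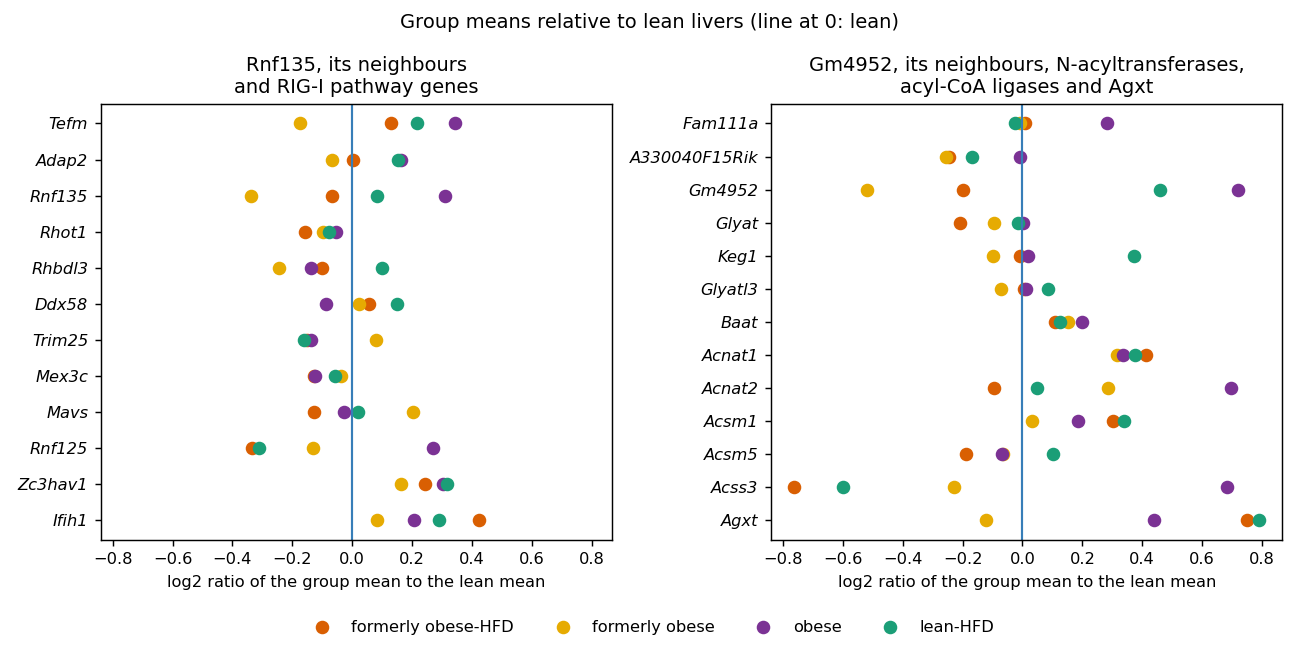
Log2 ratio of each group's average linear signal to the lean average (x axis; lean is the line at 0) for Rnf135 with its neighbours and RIG-I pathway genes (left) and for Gm4952 with its neighbours and genes of acyl and glycine conjugation (right). Formerly obese averages are farthest to the left for Rnf135 (-0.34 as a difference of mean log2 values) and Gm4952 (-0.54), while Ddx58 and Glyat stay close to the lean line.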

How the data were processed

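Liver RNA was hybridised to 30 whole-transcript arrays (Affymetrix Mouse Gene 2.0 ST). The authors made the deposited log2 signals in Affymetrix Expression Console (v.1.4.1.46) by RMA, with sketch-quantile normalisation and median polish, which makes arrays comparable and compresses changes of dim probe sets. Arrays have no read depth, and the number of mice limits the precision. Through the platform annotation 23521 probe sets had 1 symbol, 1820 several and 16004 none, and 23328 of the first matched RefSeq (GRCm38.p6). For genes with several probe sets the brightest was used.

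Rnf135, Gm4952 and all gene lists were chosen with earlier results of these data known. For each of 6 comparisons, limma 3.58.1 in R 4.3.3 was fitted to the 12 livers concerned, with Benjamini-Hochberg adjustment across the array, and the scripts were tested on simulated data. Exact tests enumerated all arrangements in Python 3.11.15. The labels number 6 samples per group without stating separate mice for each, and P values measure the spread between these samples. Named genes were Rnf135 and Gm4952, for each the 5 genes with the highest and 3 with the lowest Pearson r, the 2 annotated genes on either side, list genes past the criteria, and the 5 genes nearest outside them. Ddx58, Trim25, Mavs, Baat and Keg1, and further list genes in the plot of neighbours and pathways, were picked after their values were seen. Alternatives were other thresholds, a joint fit of all livers, a replicate block, averaged probe sets and leaving out each liver.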

Additional observations from a re-analysis of the deposited data

Results flagged for a closer look

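Single livers stood apart from the other 5 of their group in 11 of 80 sets of 6 log2 signals (16 genes in 5 groups). In these sets the gap to the nearest liver, on the log2 scale, was above Dixon's 95% critical share of the range. Chance gives about 1 such set in 20. Of these genes, 3 were set apart in lean-HFD replicate 3, with Gm4952 at 177 against 431 to 664 in the other lean-HFD livers, Acat1 at 545 against 891 to 1038, and Eci1 at 283 against 418 to 515. These genes were chosen for their correlation with Gm4952, so the 3 sets are not independent.

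In obese replicate 1, Rnf135 was highest at 34.3 against 28.9 to 30.8, while Vwa8 was lowest at 505 against 595 to 648 and Etfdh lowest at 939 against 1149 to 1256. In formerly obese-HFD replicate 6, Ribc1 was lowest at 11.6 against 16.3 to 18.3 and Vwa8 lowest at 315 against 452 to 523. Ribc1 was also lowest in formerly obese replicate 5, at 14.9 against 16.9 to 17.7. Eci1 was highest in formerly obese replicate 2, at 509 against 348 to 396, and Atg16l2 was highest in formerly obese-HFD replicate 3, at 96.5 against 42.8 to 56.8. The values given are linear signals, whereas the gaps were judged on log2 signals.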

How the results depend on the processing

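Between formerly obese-HFD and lean-HFD livers, the differences of Rnf135 and Gm4952 stayed negative under every alternative. Their differences in the other comparisons also kept their sign. Those include livers that chose the genes, so they say little about stability. Between formerly obese-HFD and lean-HFD livers, Gm4952 came under the unadjusted P of 0.01 when all 30 livers were fitted together (-0.58, limma adjusted P = 0.613) and without lean-HFD replicate 3 (-0.82). The joint fit left the difference unchanged and lowered its SE from 0.250 to 0.201. It took the spread partly from livers that chose the genes, so it is not independent of the choice. Leaving out each liver in turn gave -0.82 to -0.44 for Gm4952, with an unadjusted limma P under 0.05 in 3 of 12 fits, and -0.21 to -0.08 for Rnf135 (0 of 12), and 320 to 423 probe sets past the criteria against 378 with all livers. That count was 166 with a ratio above 1.5 and 0 with a false discovery rate of 10%. Of the listed pathway genes, 0 passed, and 1 (Keg1) with the average of all probe sets of a gene. Of the 5 genes most like Rnf135, 3 were shared with Spearman's rho and 1 with deviations from the group averages, and for Gm4952 3 were shared with deviations.

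The labels number the samples 1 to 6 in every group. Same-numbered livers of formerly obese-HFD and lean-HFD mice had deviations correlated at -0.11 to 0.07, and 2 of 6 matched their own number best, so the numbers were not taken as pairs. With the replicate number as a block, the differences were -0.16 for Rnf135 (limma adjusted P = 0.954) and -0.58 for Gm4952 (limma adjusted P = 0.926), and 387 probe sets passed. With 6 mice per group, differences as small as that of Rnf135 in refed livers lie within the error.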
